A study of Mus musculus with 4 samples.

Results

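The genes described here encode the HSP70, HSP110, HSP90, mitochondrial chaperonin, small heat shock and DNAJ chaperones of the mouse. They were taken by gene symbol (the Hspa, Hspb, Hsp90 and Dnaja, Dnajb and Dnajc families, with Hsph1, Hspd1, Hspe1 and Cryab), and 3 pseudogenes were left out. This gave 73 genes among 78334 identifiers in the counts table, of which 51486 had a symbol. By class they were 13 HSP70 genes, 1 HSP110 gene (Hsph1), 3 HSP90 genes, 2 chaperonin genes, 9 small HSP genes, 4 DNAJA, 13 DNAJB and 28 DNAJC genes.

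Polyadenylated RNA was sequenced from retinal ganglion cells, the neurons that send axons through the optic nerve, of wild-type mice of both sexes. Eyes of mice aged 8 weeks were injected with an adeno-associated virus of serotype 2 (2 µl per eye). Both viruses carried mCherry, together with an shRNA against miR-132-3p (anti-miR132-3p) or with a scrambled shRNA (scramble). The optic nerve was crushed 2 weeks after the injection, in both groups alike, and cells were collected 2 weeks after the crush. Retinas were pooled, 10 per condition, and about 5000 mCherry-positive cells per library were sorted after Thy1 panning, from a retina in which about 40% of ganglion cells were transduced. No uncrushed or uninjected group was analysed here, so a chaperone level cannot be set against that of an uninjured cell.

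HSP70 chaperones bind exposed hydrophobic stretches of unfolded proteins and release them in a cycle driven by ATP. DNAJ proteins (J-domain proteins) bring clients to HSP70 and start ATP hydrolysis, and HSP110 proteins exchange the nucleotide. HSP90 acts on clients that are nearly folded, small HSPs hold unfolded proteins without ATP, and Hspd1 with Hspe1 forms the folding chamber of the mitochondrial matrix. A part of these genes is induced by heat shock factor 1 through heat shock elements, and another part by the unfolded protein response of the endoplasmic reticulum.

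The table held 2 libraries per group, with totals from 1731199 to 1846637 counts. Within a group, the counts of both libraries agreed within sampling noise (chi-square per degree of freedom 1.01, p = 0.18, for scramble, and 1.00, p = 0.50, for anti-miR132-3p, against 4.07 to 4.08 across groups). Each pair was therefore counted as 1 sample, and no difference below has a replicate check. Folds are ratios of CPM, the usual scale of counts relative to library size (here TMM-adjusted), over summed pairs, with exact 95% intervals (Clopper-Pearson) for counting error alone. A gene is called where edgeR's quasi-likelihood test gave an adjusted p under 0.05 over 11427 tested genes, and such a p speaks of these libraries' reads rather than of the conditions. Markers of ganglion cells were present (Slc17a6 at 317 and 304 CPM, Rbpms at 50.1 and 41.8 CPM in scramble and anti-miR132-3p), although Pou4f2 had 3 to 5 counts per library. Of 11 tested ganglion cell markers, 3 were called higher (Thy1, also the panning antigen, 1.47-fold, Tubb3 1.42-fold and Nefm 1.30-fold) and 2 lower (Pou4f1 1.47-fold and Nefh 1.35-fold). Over all tested genes, 13.5% were called higher and 10.4% lower. Of 7 amacrine markers, Gad1, Slc32a1 and Tfap2b were at 0, Pax6 was at 1634 and 1609 CPM, and the other 3 were called higher (Slc6a9 2.72-fold, Gad2 1.38-fold and Tfap2a 1.23-fold). In a bulk sample, fewer cells of a type and less RNA per cell cannot be told apart.

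The shRNA was directed at miR-132-3p. Its mature sequence is shown because the seed, bases 2 to 8 in capitals, sets the matches looked for in the chaperone transcripts. It is from RefSeq, GRCm38.p6, chr11:75173723-75173744, plus strand.
mmu-miR-132-3p: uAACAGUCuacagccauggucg

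The seed match GACTGTT, or GACTGTTA with the additional A, was looked for on the sense strand of the longest 3' UTR of each gene in GENCODE M21, an older build than the authors'. It occurred in 12 of the 73 chaperone genes and in 8 of the 58 tested ones (13.8%), beside 14.2% of 10400 tested genes with a 3' UTR. The sites of Hspa1a, Hspa12a, Dnajb5, Dnajc5 and Hspa4l are shown because these genes were called, and that of Hspa1b because it is the near copy of Hspa1a. Capitals mark the match. It starts at base 355 of the UTR in Hspa1a, 63 in Hspa12a, 130 in Dnajb5, 2356 in Dnajc5, 2475 in Hspa4l and 147 in Hspa1b.
Hspa1a: aacatcaggaGACTGTTgagttctttg
Hspa12a: acctcagcctGACTGTTctgtccctga
Dnajb5: attttcaggaGACTGTTcctgttcccg
Dnajc5: ggatcagtctGACTGTTcttgtccaaa
Hspa4l: actatacaaaGACTGTTAaatgatacag
Hspa1b: taattgcgttGACTGTTAaattttgtat

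Of the 8 tested genes with a match, 4 were called higher in anti-miR132-3p (Hspa1a, Hspa12a, Dnajb5 and Dnajc5) and 1 lower (Hspa4l). Hspa1a passed the filter on low counts only through the anti-miR132-3p libraries, so its call and its part in the median below carry no weight. Dnajc5 lost its call with a correction for GC content and transcript length. Dnaja2, Dnajb14 and Dnajc1 held a match and were not called. The median log2 fold change of the 8 was 0.13, and that of the 50 tested chaperone genes without a match was -0.17. Over all genes the median was 0.0056 for 1477 tested genes with it and 0.00083 for 8923 without, and 14.3% and 14.1% were called higher. A match is a description of the letters, not a measured site.

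Promoters were read from RefSeq (GRCm38.p6, 250 bases before to 50 after the start), which held 58 of the 73 genes. Hsp90aa1, Hsp90ab1, Hspa8, Hspa9 and Cryab were among the genes it lacked, so their promoters were not searched. The heat shock element (GAA, TTC and GAA, each separated by 2 bases), searched on both strands, was found for 4 of the 58 (6.90%). These were Hspd1, Hspe1, Hsph1 and Dnajb6, against 0.662% of 27025 genes with a promoter. The endoplasmic reticulum stress element (CCAAT and CCACG separated by 9 bases), both strands, was found for 3 (5.17%), Hspa5, Hsp90b1 and Dnajc3, against 0.137%. The TATA box TATAAA, both strands, was found for 4 (6.90%), against 15.7% of all genes. The heat shock and stress elements are shown, in capitals, because some of the genes that share one were called and others were not. Windows are chr1:55088053-55088082 for Hspe1 (plus strand) and for Hspd1 (minus strand), chr5:149636280-149636308 for Hsph1 (minus), chr5:29735844-29735872 for Dnajb6 (plus), chr2:34772020-34772048 for Hspa5 (plus), chr14:118937822-118937850 for Dnajc3 (plus), and chr10:86705633-86705661 and chr10:86705528-86705556 for Hsp90b1 (minus).
Hspe1: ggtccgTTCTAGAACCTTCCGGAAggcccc
Hspd1: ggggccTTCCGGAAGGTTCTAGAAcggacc
Hsph1: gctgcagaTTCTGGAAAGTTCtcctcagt
Dnajb6: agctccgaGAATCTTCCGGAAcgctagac
Hspa5: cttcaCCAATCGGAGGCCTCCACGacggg
Dnajc3: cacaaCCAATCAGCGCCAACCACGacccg
Hsp90b1, far element: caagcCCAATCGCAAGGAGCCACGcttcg
Hsp90b1, near element: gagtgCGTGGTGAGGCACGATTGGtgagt

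Hspe1 and Hspd1 are divergent neighbours, and the same bases, read from opposite strands, hold 2 overlapping matches. Among the genes with the heat shock element, Hspd1, Hsph1 and Dnajb6 were called lower and Hspe1 was not called (edgeR adjusted p = 0.059). Their ratios ran from 0.798 (Dnajb6) to 0.850 (Hsph1), with Hspe1 in between. With the correction for GC content and transcript length they lay further apart, with log2 fold changes from -0.37 (Dnajb6) to 0.13 (Hspe1). Among those with the stress element, Hspa5 was called lower and Hsp90b1 and Dnajc3 were not called. The promoters of Hspa1a, Hspa1b, Hspb1, Dnaja1 and Dnajb1 held no match to these heat shock letters, which says nothing about the factor.

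The most abundant chaperones were lower with the anti-miR132-3p shRNA, and a few scarce or mid-level ones were higher. Hsp90ab1, Hsp90aa1, Hspa5 and Hspa8, which together held 53.6% of the chaperone counts in scramble, were each called lower by 1.30 to 1.45-fold. Hspa1a, the heat-inducible HSP70, was called 4.05-fold higher, though it passed the filter on low counts only through the libraries in which it was high. Hspa12a, Dnajb5 and Dnajc16 were called 1.76 to 2.11-fold higher. The small HSPs Cryab, Hspb1 and Hspb8 were called 1.63 to 2.35-fold lower.

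Of 73 genes, 58 passed the filter on low counts. Of these, 27 were called, 10 higher and 17 lower, or 46.6%, 17.2% and 29.3%, beside 23.8%, 13.5% and 10.4% of all tested genes. Their median log2 fold change was -0.10, against -0.0030 over all genes. A change of at least 1.5-fold was seen for 4 higher (6.90%) and 5 lower (8.62%), beside 12.6% and 5.12% of all tested genes. Both anti-miR132-3p libraries were above both scramble libraries for 16 (27.6%) and below for 28 (48.3%), where 31.3% and 30.6% of all genes did so. As each pair was counted as 1 sample, such a gap between the groups adds no support to a call. No chaperone gene that passed the filter changed by 1.5-fold without being called. Leaving out any 1 library, or the low-count filter, left 0 of the 27 calls by edgeR's quasi-likelihood test, with 23 to 25 and 28 chaperone genes at an unadjusted p under 0.05.

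Calls lower were more frequent among abundant genes in general. Of the 90 tested genes at 1000 CPM or more, 58.9% were called lower, and all 4 chaperone genes in that range were. From 100 to under 1000 CPM, 27.2% of 2338 genes were called lower and 16.8% higher, beside 8 and 6 of 25 chaperone genes. Under 100 CPM the shares were 5.49% and 12.6% of 8999 genes, beside 5 and 4 of 29 chaperone genes. Of the 58 tested chaperone genes 29 were at 100 CPM or more, against 21.2% of all tested genes. These level ranges were chosen after the values had been seen.

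**Figure D1:**
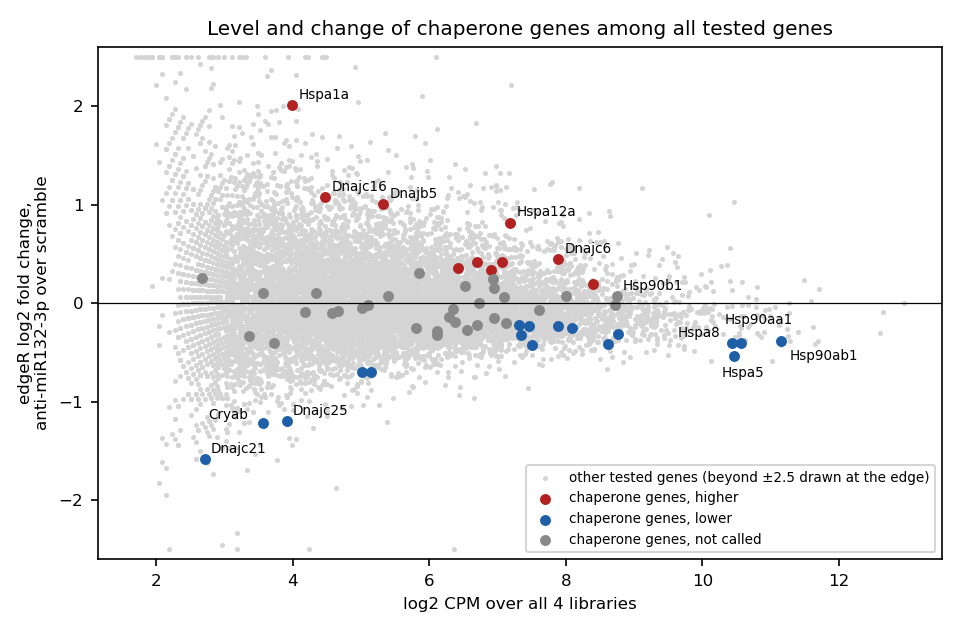
Each point is a tested gene, with log2 CPM over the 4 libraries on the x axis and the edgeR log2 fold change, anti-miR132-3p over scramble, on the y axis; light grey points are other genes (those beyond the axis drawn at its edge), and red, blue and dark grey points are chaperone genes called higher, lower and not called. The 4 chaperone genes at 1000 CPM or more lie below 0, and Hspa1a is the highest chaperone gene at 2.01.

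Summed over all 73 genes, chaperones were at 14063 and 14040 CPM in the scramble libraries and at 11925 and 11987 CPM in the anti-miR132-3p libraries. The sum was 1.18-fold lower (1.16 to 1.19). The 4 most abundant genes were 1.34-fold lower together (1.32 to 1.37), from 7525 to 5598 CPM. The other 69 were at 6526 and 6357 CPM, 1.03-fold lower (1.01 to 1.05).

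The classes differed in their sums. HSP70 genes summed to 4599 CPM in scramble and 3631 CPM in anti-miR132-3p, 1.27-fold lower (1.24 to 1.30). HSP90 genes went from 4710 to 3710 CPM, 1.27-fold lower (1.24 to 1.30), and the chaperonin pair from 373 to 309 CPM, 1.21-fold lower (1.11 to 1.31). Small HSPs were at 145 and 101 CPM, 1.44-fold lower (1.25 to 1.65). The 45 DNAJ genes summed to 4034 and 4044 CPM, a ratio of 1.00 (0.979 to 1.03). Within them DNAJA was at a ratio of 0.964 (0.913 to 1.02), DNAJB at 0.947 (0.902 to 0.994) and DNAJC at 1.04 (1.01 to 1.07). The interval of the DNAJ sum leaves out a fall of the size seen in the HSP70 and HSP90 sums.

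**Figure D2:**
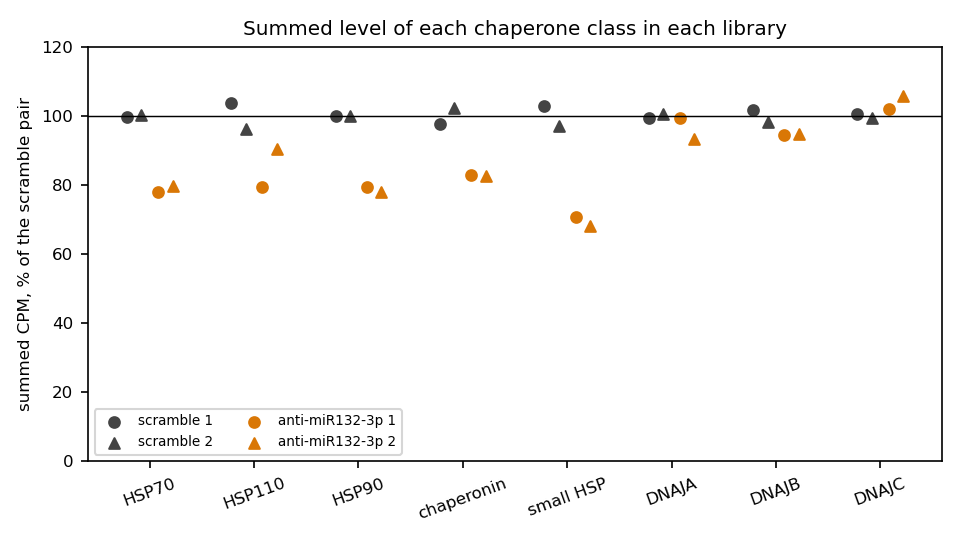
The y axis is the summed CPM of all genes of a class in each library, as a percentage of the scramble pair; dark marks are scramble libraries and orange marks anti-miR132-3p libraries, with circles for library 1 and triangles for library 2. HSP70, HSP110, HSP90, chaperonin, small HSP and DNAJB sums of both anti-miR132-3p libraries lie below both scramble libraries, and the DNAJA libraries overlap.

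Of the 13 HSP70 genes, 10 were tested, with 3 called higher and 4 lower. Hspa1a had 10 and 13 counts in the scramble libraries and 42 and 47 in the anti-miR132-3p libraries. The gene was 4.05-fold higher (2.54 to 6.72, edgeR adjusted p = 8.8e-05). The groups did not overlap, as for 31.3% of all tested genes in that direction. Hspa1a passed the filter on low counts only through the anti-miR132-3p libraries, so its call carries no weight. Hspa1b, which encodes almost the same protein next to it, had 0 and 0 against 2 and 1 counts and was not tested. Reads of the pair can be split or lost between the copies, and their sum was 23 against 92 counts, 4.19-fold higher (2.63 to 6.93).

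Hspa12a, a distant HSP70 relative, had 197 and 185 counts against 300 and 343. Both anti-miR132-3p libraries were above both scramble libraries, as for 31.3% of all tested genes, at 1.76-fold (1.55 to 2.01). Hspa4, a nucleotide exchange factor of the HSP110 type, had 200 and 215 counts against 255 and 276, 1.34-fold higher (1.18 to 1.53). Its relative Hspa4l went the other way, from 478 to 384 CPM, 1.24-fold lower (1.16 to 1.34). Hsph1, the third exchange factor of this type, had 356 and 331 counts against 261 and 297, 1.18-fold lower (1.05 to 1.32, adjusted p = 0.047). The 3 exchange factors thus did not move together. The Hsph1 call was lost with library totals as scaling (adjusted p = 0.096) and with limma-voom (adjusted p = 0.051).

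Hspa5 encodes BiP, the HSP70 of the endoplasmic reticulum. It had 2898 and 3095 counts against 1932 and 2003, and was 1.45-fold lower (1.40 to 1.51, adjusted p = 1.6e-08). Hspa8, the constitutive cytosolic HSP70 that also strips clathrin from vesicles, had 2861 and 2819 counts against 2038 and 2049. It was 1.33-fold lower (1.27 to 1.38). Hspa9, the HSP70 of the mitochondrial matrix, was also 1.33-fold lower (1.23 to 1.44), at 467 and 424 CPM against 338 and 331 CPM. For Hspa5, Hspa8 and Hspa9 alike, both anti-miR132-3p libraries were below both scramble libraries, as for 30.6% of all tested genes. Per kilobase of exon, Hspa5 and Hspa8 were the most abundant HSP70 genes, at 393 and 366 CPM per kilobase in scramble, where Hspa1a was at 2.15. In anti-miR132-3p Hspa1a was at 8.70 CPM per kilobase beside 276 for Hspa8. Hspa2, Hspa13 and Hspa14 were not called, with log2 fold changes from -0.33 to 0.15. Hspa12b and Hspa1l were not tested.

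The cytosolic HSP90 genes were lower and the HSP90 of the endoplasmic reticulum was not called. Hsp90aa1, the inducible form, had 3050 and 3165 counts against 2247 and 2240, 1.32-fold lower (1.27 to 1.37). Hsp90ab1, the constitutive form, had 4645 and 4631 counts against 3456 and 3334, 1.30-fold lower (1.26 to 1.35). At 857 CPM per kilobase of exon in scramble, Hsp90ab1 was the most abundant of all 73 genes. Hsp90b1, also called GRP94, had 791 and 719 counts against 757 and 755, a ratio of 1.05 (0.976 to 1.13). Its libraries overlapped, and the interval excludes a fall of the size seen for Hspa5. With a correction for GC content and transcript length, chosen because fold changes followed both over all genes (Spearman correlation across 11273 genes 0.25 and 0.26), Hsp90b1 was called higher (log2 fold change 0.19, adjusted p = 0.011).

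Hspd1, the ring-forming chaperonin, had 521 and 550 counts against 430 and 425. It was 1.20-fold lower (1.09 to 1.31, adjusted p = 0.0053). Its lid Hspe1 had 136 and 140 counts against 104 and 107, a ratio of 0.800 (0.666 to 0.961), and was not called (adjusted p = 0.059). The groups did not overlap for either gene, as for 30.6% of all tested genes in that direction. The GC and length correction ended the call of Hspd1 (log2 fold change -0.09, adjusted p = 0.32). It turned the sign of Hspe1 from -0.32 to 0.13.

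Of the 9 small HSP genes 5 were tested. Of these, 3 (60.0%) were called lower and 0 higher, beside 10.4% and 13.5% of all tested genes. Cryab, the alphaB-crystallin of lens and stressed cells, had 33 and 26 counts against 11 and 13, and was 2.35-fold lower (1.44 to 3.95). Hspb1, an actin-protecting small HSP known from injured neurons, had 75 and 68 counts against 45 and 39, 1.63-fold lower (1.23 to 2.15). Hspb8, a partner of Bag3 in selective autophagy, had 75 and 82 counts against 42 and 50, 1.63-fold lower (1.25 to 2.13). Both anti-miR132-3p libraries were below both scramble libraries for Cryab, Hspb1 and Hspb8, as for 30.6% of all tested genes. Hspb6 and Hspb11 overlapped between the groups, with log2 fold changes of -0.09 and -0.08. Hspb2, Hspb3 and Hspb7 had 0 or 1 counts in each library, and Hspb9 had 0 in all 4.

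Small HSPs are also expressed by glia, lens and vascular cells, so their markers are given beside these values. Of 5 astrocyte markers, summed at 22.7 CPM in scramble and 15.96 CPM in anti-miR132-3p, Gfap held 71 of 82 and 47 of 55 counts. The ratio of the sum was 0.702 (0.490 to 1.0004), and Gfap was not called (edgeR adjusted p = 0.147). Gja1 went the other way, at 0 and 0 against 4 and 4 counts. The sum ranged from 21.6 to 23.9 CPM in the scramble libraries and from 14.5 to 17.4 CPM in the other 2. Of 10 lens markers, 5 (Cryaa, Cryba1, Crybb1, Crygs and Lim2) were at 0 in all libraries, and the sum was 7.77 and 9.96 CPM against 9.28 and 11.6 CPM. The 8 Müller glia markers summed to 1213 and 1770 CPM, of which Dkk3 held 1096 and 1618 CPM, and Dkk3 was called 1.48-fold higher. Apoe in this list had 31 and 38 against 114 and 104 counts, called 3.31-fold higher (2.51 to 4.40), while Rlbp1 had 19 and 25 against 16 and 10 counts and was not called. The 6 mural markers, with Acta2 and Myh11 at 0, summed to 37.4 and 38.3 CPM, nearly all from Rgs5. Of 13 microglia and leukocyte markers, with Itgam at 0, Cd68 had 15 and 27 against 10 and 6 counts and was called lower. The whole list had 47 counts in scramble and 96 in anti-miR132-3p, a ratio of 2.14 (1.49 to 3.10). Without Cd68, the other 12 had 5 and 80 counts in all, a ratio of 16.8 (6.89 to 53.0). None of them passed the filter on low counts, and Aif1, at 1 and 0 against 0 and 0 counts, did not go that way. Photoreceptor genes were lower in anti-miR132-3p: Sag had 70 and 61 against 1 and 1 counts, Pdc 31 and 30 against 3 and 0, and Pde6b 43 and 36 against 23 and 20, all called. The endothelial sum was 2.49 CPM in scramble and 4.64 CPM in anti-miR132-3p. The part of other cells in the small HSP values was not tested.

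DNAJA genes, the co-chaperones closest in build to bacterial DnaJ, were not called in any of 4 cases. Dnaja1 had 746 and 780 counts against 734 and 705, a ratio of 0.987 (0.918 to 1.06). Dnaja2 had 372 and 351 counts against 341 and 316, a ratio of 0.951 (0.855 to 1.06). The libraries overlapped for both, and the intervals leave out a fall as large as that of Hspa8. Dnaja3, the mitochondrial member, and Dnaja4 were at log2 fold changes of -0.16 and 0.26.

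Of 13 DNAJB genes 8 were tested, with 2 called higher and 2 lower (25.0% each, beside 13.5% and 10.4% of all tested genes). Dnajb5 had 41 and 56 counts against 94 and 92, 2.01-fold higher (1.56 to 2.59, adjusted p = 0.00057). Dnajb1, the main heat-inducible J-domain partner of Hspa1a and Hspa8, had 205 and 178 counts against 223 and 240, 1.27-fold higher (1.103 to 1.453, adjusted p = 0.018). This call of Dnajb1 was lost with the GC and length correction (log2 fold change 0.22, adjusted p = 0.11). Dnajb6, a suppressor of aggregation, had 333 and 315 counts against 261 and 233, 1.25-fold lower (1.11 to 1.41). Dnajb9, an endoplasmic reticulum co-chaperone of BiP, had 392 and 354 counts against 257 and 272, 1.35-fold lower (1.20 to 1.51). With the correction the Dnajb9 log2 fold change moved from -0.43 to -0.20 (adjusted p = 0.074). In all 4 the groups did not overlap, as for 31.3% (above) and 30.6% (below) of all tested genes. Dnajb11, another BiP partner, had 188 and 215 counts against 163 and 167 and was not called (adjusted p = 0.12), and Dnajb2, Dnajb4 and Dnajb14 had log2 fold changes from -0.20 to 0.30.

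Of 28 DNAJC genes 25 were tested, with 5 called higher and 4 lower. Dnajc6, the neuronal auxilin that recruits Hspa8 to clathrin coats, had 360 and 365 counts against 446 and 495, 1.36-fold higher (1.232 to 1.499, adjusted p = 0.00023). Gak, the broadly expressed auxilin, which does not carry a Dnajc symbol, had 90 and 65 counts against 125 and 129, 1.72-fold higher (1.40 to 2.11). Dnajc5, the cysteine string protein of synaptic vesicles, had a smaller change, from 316 to 362 CPM, 1.14-fold higher (1.06 to 1.24), and lost its call with the GC and length correction (adjusted p = 0.22). Dnajc13, an endosomal member, was at 34.6 and 34.2 CPM, its libraries overlapping (adjusted p = 0.96).

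Dnajc16 had 22 and 30 counts against 47 and 58, 2.11-fold higher (1.503 to 3.008). Dnajc27, a Rab-like GTPase with a J domain, was 1.33-fold higher (1.15 to 1.55), and Dnajc14, known for its part in receptor export, was 1.28-fold higher (1.09 to 1.51). On the lower side, Dnajc21, a factor of ribosome assembly, had 13 and 22 counts against 5 and 6, 3.04-fold lower (1.51 to 6.63). It passed the filter only through the scramble libraries and rests on few counts. Dnajc25 had 43 and 32 counts against 15 and 16, 2.31-fold lower (1.502 to 3.634).

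Dnajc7, a cytosolic link between HSP70 and HSP90, had 464 and 460 counts against 377 and 373, 1.18-fold lower (1.07 to 1.30). Dnajc10, a disulfide reductase of the endoplasmic reticulum, was 1.17-fold lower (1.04 to 1.32, adjusted p = 0.049), a call lost with library totals (0.088), limma-voom (0.054) and the GC and length correction (0.13). Dnajc8, a splicing-associated member with the highest level per kilobase among DNAJC genes, 98.3 in scramble, had 460 and 447 counts against 400 and 509. Its libraries overlapped and it was not called, but it was called higher with the correction (log2 fold change 0.39, adjusted p = 0.00042). The other 15 tested DNAJC genes that were not called, Dnajc13 among them, had log2 fold changes from -0.40 to 0.24.

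**Figure D3:**
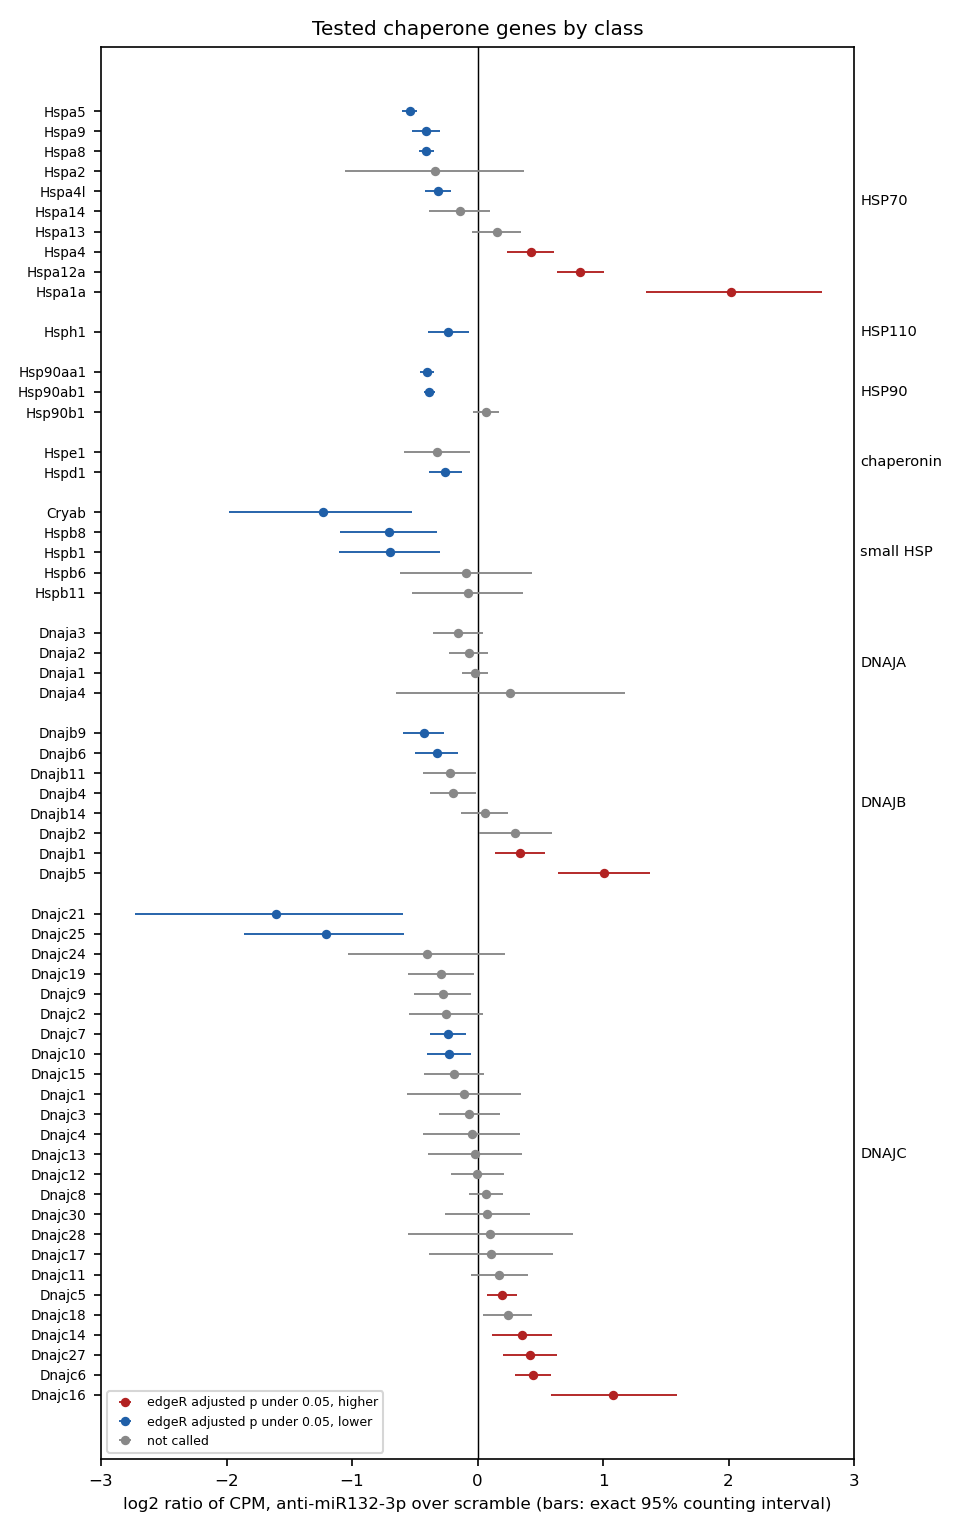
The x axis is the log2 ratio of CPM over summed pairs, anti-miR132-3p over scramble, with exact 95% counting intervals as bars, for the 58 tested chaperone genes in rows by class; red and blue mark genes called higher and lower by edgeR, grey those not called. The 3 called small HSPs and the cytosolic HSP90 pair lie left of 0, and DNAJC genes lie on both sides.

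**Figure D4:**
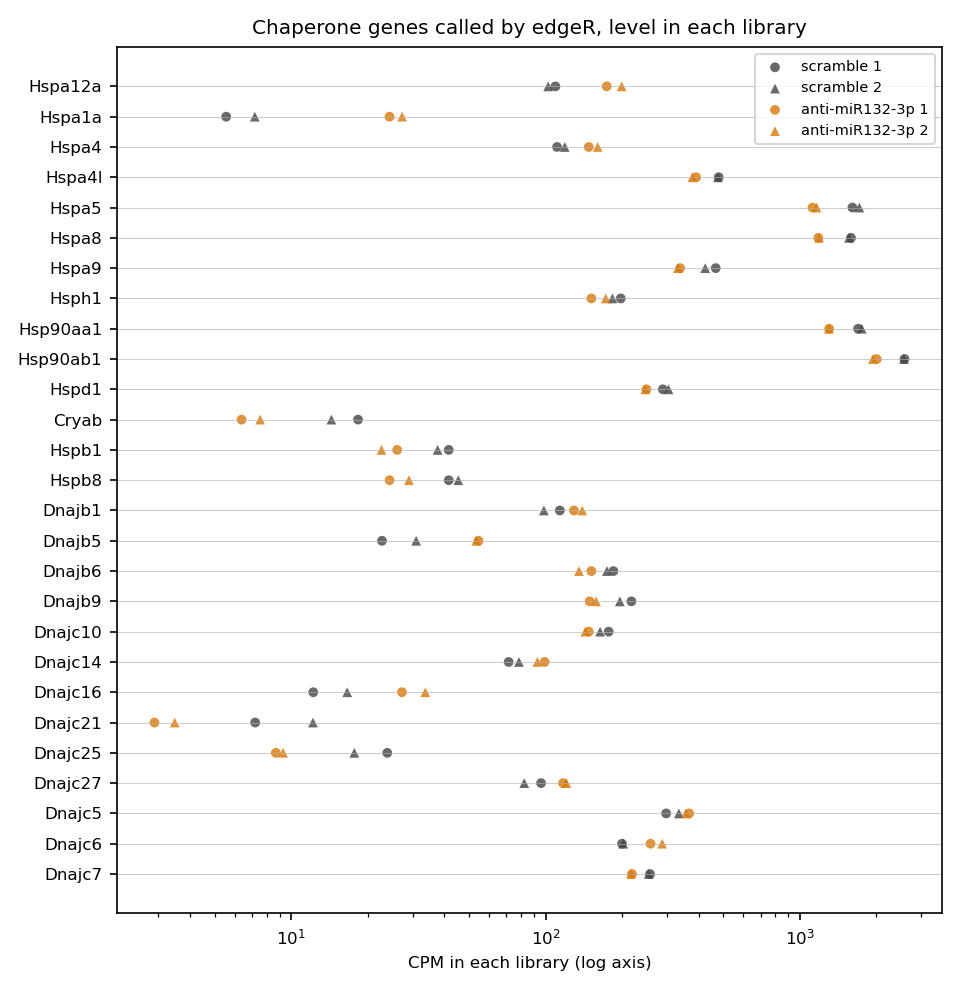
Each row is 1 of the 27 called chaperone genes, and the x axis is CPM in each library on a log scale; dark marks are scramble and orange marks anti-miR132-3p, with circles for library 1 and triangles for library 2. The groups do not overlap in any row, though Hsph1 and Dnajc5 come near to it. The rows were selected by calls in these same libraries, so this adds no support. The levels run from that of Dnajc21 to that of Hsp90ab1.

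The genes were also grouped by where the proteins work, and the shares over all tested genes to set beside these counts are 13.5% higher, 10.4% lower and 23.8% either way. A list of 15 cytosolic genes, most of them heat-inducible but with the constitutive Hspa8 and Hsp90ab1 among them, had 14 tested. Of these 3 were called higher (Hspa1a, Hspa4 and Dnajb1) and 8 lower, Hspa8 and Hsp90ab1 included, with a median log2 fold change of -0.27. The 12 endoplasmic reticulum genes had 11 tested, 0 higher and 4 lower (Hspa5, Dnajb9, Dnajc10 and Dnajc25), with a median of -0.11. With the GC and length correction 1 of them was called higher (Hsp90b1) and 2 lower. Dnajc3, an inhibitor of the kinase PERK in this group, had 146 and 153 counts against 135 and 138. The 10 mitochondrial genes had 0 higher and 2 lower (Hspa9 and Hspd1), with a median of -0.17, and their share of calls in either direction (20.0%) was near that of all genes. The list for synaptic vesicles, clathrin and endosomes held Dnajc5, Dnajc6 and Dnajc13, and also Dnajb2 and Dnajb6, whose place there was not checked. Its 5 genes had 2 higher (Dnajc5 and Dnajc6) and 1 lower (Dnajb6), with a median of 0.19. The 6 genes of ribosome, nucleus and splicing had 0 higher and 1 lower (Dnajc21). The 25 genes in none of these lists had 12 tested, 5 higher and 1 lower.

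With the GC and length correction, 10 chaperone genes were called higher and 14 lower, where 11.2% and 7.82% of 11273 genes were. Of the 27 calls, 22 were kept, and those of Hspd1, Dnajb1, Dnajb9, Dnajc5 and Dnajc10 were lost. Hsp90b1 and Dnajc8 were added. The median of the 58 genes moved from -0.10 to -0.02 and that of all genes to 0.03.

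**Figure D5:**
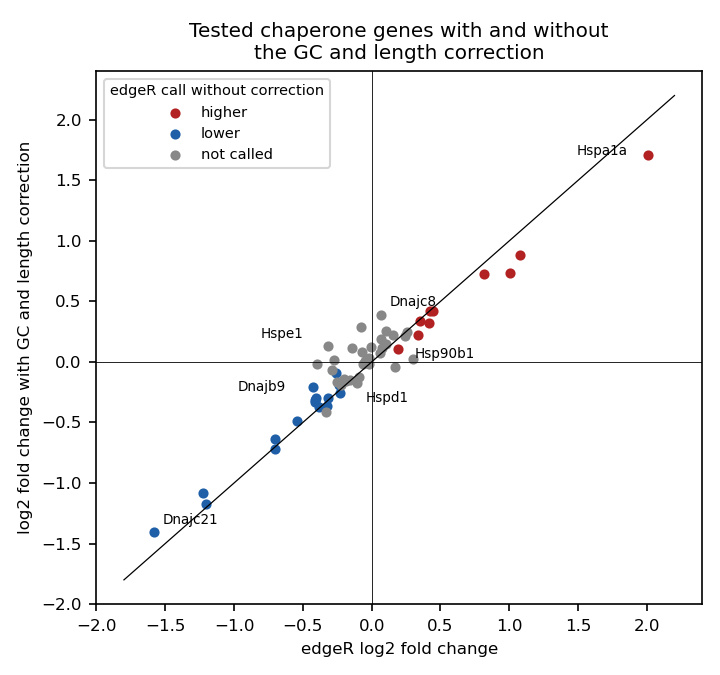
The x axis is the edgeR log2 fold change of the 58 tested chaperone genes and the y axis the same with the correction for GC content and transcript length; colours give the call without the correction and the line marks equal values. Hspa1a and Dnajc21 stay at the ends, and Hspe1 is among the genes that cross from below 0 to above it.

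Among the partners of these chaperones, 36 co-chaperones of HSP70 and HSP90 were tested. The calls were 3 higher (8.33%) and 5 lower (13.9%), where 13.5% and 10.4% of all tested genes were called, and the median log2 fold change was -0.04. Their share of calls in either direction, 22.2%, was near the 23.8% of all genes. St13, which stabilises the ADP-bound form of HSP70, had 1500 and 1498 counts against 1128 and 1079, 1.30-fold lower (1.23 to 1.37). Rpap3, of an HSP90 adaptor complex, was 1.40-fold lower (1.11 to 1.79) and Chordc1, an HSP90 binder, 1.24-fold lower (1.11 to 1.38). Bag4, a nucleotide exchange factor, was 1.60-fold higher (1.31 to 1.98), Unc45a, a myosin chaperone, 1.55-fold higher (1.16 to 2.09) and Fkbp8 1.32-fold higher (1.13 to 1.55). Stip1, which joins HSP70 to HSP90, was not called (adjusted p = 0.14).

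Of the heat shock factors tested none was called. Hsf1, the main factor of the heat response, had 70 and 69 counts against 78 and 84 (adjusted p = 0.19), and Hsf2 had 41 and 47 against 30 and 36 (adjusted p = 0.28). Hsbp1, a small binding protein of Hsf1, was 1.16-fold lower (1.08 to 1.24). Among 9 other heat-inducible genes, 7 were tested. Zfand2a, a proteasome adaptor, was 1.43-fold higher (1.17 to 1.76), and the ubiquitin gene Ubb had 4990 and 4392 counts against 3342 and 3314, 1.35-fold lower (1.30 to 1.39). The other 5 tested were not called.

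Of the 73 genes, 15 were not tested. Hspb9, Dnajb8, Dnajb13, Dnajc22 and Dnajc5g had 0 counts in all 4 libraries, where 3 counts over a pair would be 0.831 CPM in scramble and 0.870 CPM in anti-miR132-3p. The other 10 had 1 to 37 counts in total. Dnajb3, with the 37 counts, had a ratio of 1.37 (0.683 to 2.82). At this depth only large differences could be seen in the untested genes with the most counts, and none in those with few or 0.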

How the data were processed

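The authors deposited whole-number counts per gene for 4 libraries. The submitters' processing notes name build GRCm39, Cuffdiff, Cuffnorm, Cufflinks, HISAT2 2.2.1, SAMtools 1.10 and Trimmomatic 0.39. Not given in the sources used here were the strand setting, the read counter and the annotation release, so overlapping or antisense genes and near-identical copies cannot be told apart. Columns named mCherry were taken as scramble because the others name miR132; every direction rests on this. Separate animals for the 2 libraries of a group are not named in the labels.

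Symbols were matched by gene identifier in a reference table of gene names, and lengths, GC content and 3' UTRs came from GENCODE M21. Exon length per kilobase is the union of exons. Counts were analysed with R 4.3.3, edgeR 4.0.16 (filterByExpr, at least 10 counts at the median library, TMM, glmQLFit, glmQLFTest, Benjamini-Hochberg), limma 3.58.1 and DESeq2 1.42.0, and Python 3.11.15. The GC and length correction subtracted natural splines (4 degrees of freedom) fitted in each library. The genes and lists were chosen with earlier results of these data known. All called chaperone genes are named, with counts for the 4 largest changes and the 2 highest levels per class, Hspa1a and Hspa1b, and a few others chosen after their values were seen; up to 3 called genes per direction are named from each partner list. Chaperone genes on chromosome 18 have no sequence shown. Protein sequences were not used here. One marker is not reported here, so the photoreceptor list is given by single genes; marker genes named singly, and the microglia sum without Cd68, were chosen after their values were seen.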

Additional observations from a re-analysis of the deposited data

How the results depend on the processing

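The 10 higher and 17 lower chaperone calls, and the 1540 and 1183 calls over all genes, rest on a spread measured within pairs that agree within sampling noise. With no low-count filter edgeR called 0 and 0 chaperone genes and 1 and 2 of all genes. DESeq2 called 4 and 7, and 481 and 274 of all genes. With each pair summed and an assumed coefficient of variation of 0.1 the calls were 4 and 1, and 415 and 47 over all genes; at 0.2 they were 1 (Hspa1a) and 0, and 43 and 6. An adjusted p under 0.01 left 7 and 12, and 856 and 547 over all genes. Leaving out 1 library, whichever it was, gave 0 to 0 in every count by edgeR's quasi-likelihood test, with 23 to 25 chaperone genes and 2652 to 2767 genes at an unadjusted p under 0.05; the remaining single library was taken to spread as the other group does. No called chaperone gene changed sign in any of these or the scaling, filter and test alternatives in which it was fitted. The replicate number as a block gave 11 and 18 chaperone calls and 1740 and 1437 over all genes; same-numbered libraries did not deviate together (correlation across genes 0.013), so the numbers were not taken as pairs. The summed fold of each class moved by less than its counting interval with library totals, and that of HSP70 without Hspa1a and Hspa1b. The sum over all 73 genes left its counting interval (1.16 to 1.19) with library totals, at 1.15-fold lower. The cause of these moves was not tested.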
